A study of Mus musculus with 2 samples.

Results

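The 10 genes described here, Phf11a, Phf11b, Phf11c, Phf11d, Ifi44, Rtp4, Xaf1, Epsti1, Ifi27l2a and Lgals3bp, are interferon-induced or related genes that have been studied less than the classical antiviral effectors. They were chosen by symbol from the 16463 genes of the deposited table, and all 10 had a row of their own. Polyadenylated RNA was sequenced from resting bone marrow-derived macrophages, which are grown from marrow precursors in macrophage colony-stimulating factor, from mice labelled C57BL/6J. The first library came from mice labelled WT, which carry Lyz2-Cre. The second came from mice labelled TKO, which the title gives as mir-106a~363-/-, mir-106b~25-/- and mir-17~92 flox/flox with Lyz2-Cre. The Cre recombinase, which removes floxed DNA, is driven in cells of the myeloid lineage by the Lyz2 (lysozyme M) gene, and both genotypes carry it. The age of the mice and the number of animals behind a library are not stated in the labels. Each genotype had 1 library, so differences were not checked against replicates, and every interval covers counting error only.

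Type I interferon binds its receptor on the cell surface, and the JAK1 and TYK2 kinases then switch on a transcription factor complex that contains IRF9 and binds the interferon-stimulated response element in the promoters of its target genes. Macrophages express many of these targets at a low level without added stimulus. The Phf11 genes encode proteins with a PHD zinc finger and lie side by side next to Setdb2, a histone methyltransferase gene.

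The totals were 10877897 rounded counts in WT and 10656431 in TKO, and the median log2 ratio of the 11525 genes with at least 20 counts in 1 library was 0.0043. All 8 macrophage markers were well detected, and none of them passed the size rule defined below. Their log2 ratios of TKO over WT lay between -0.43 for Adgre1 and 0.68 for Fcgr1, and 3 of the 8 were above 0. Csf1r, the receptor for the growth factor of the culture, had FPKM values of 974.73 in WT and 892.70 in TKO. For Mir17hg, the host transcript of mir-17~92, WT had 8 counts and TKO 42. Reads of a host transcript outside the deleted part check nothing, and mature microRNAs were not measured, so these values do not check the genotype labels.

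Promoter stretches are shown first because most of these genes share a short sequence near an annotated start of transcription. RefSeq windows (GRCm38.p6) of 300 bases, running from 250 bases before to 50 after a start site, were matched by symbol for 8 of the 10 genes, all except Rtp4 and Ifi27l2a. The capitals below mark AANNGAAACT, or its reverse complement, an extended form of the AANNGAAA core bound by interferon regulatory factors. This extended form was chosen after the windows had been read. For Phf11a, Phf11b and Phf11d the stretch is the 60 bases before the 5′ end of the gene in GENCODE M21. For Xaf1, Ifi44 and Lgals3bp it is 30 bases around the first match. For Phf11c, whose window had no match, it is the 60 bases before the RefSeq start. The GENCODE 5′ end of Phf11c lies further upstream, at 59395381, so its stretch and its window lie inside the GENCODE gene. Each sequence is written 5′ to 3′ on the strand of the gene.
Phf11a, chr14:59297523-59297582, minus strand: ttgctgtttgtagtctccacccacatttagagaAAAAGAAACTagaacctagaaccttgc
Phf11b, chr14:59341352-59341411, minus strand: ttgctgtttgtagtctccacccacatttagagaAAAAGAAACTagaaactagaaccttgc
Phf11d, chr14:59365471-59365530, minus strand: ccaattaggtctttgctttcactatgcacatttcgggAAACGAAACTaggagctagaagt
Phf11c, chr14:59393513-59393572, minus strand: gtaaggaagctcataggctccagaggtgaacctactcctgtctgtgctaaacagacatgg
Xaf1, chr11:72301630-72301659, plus strand: gtgtgcaaagAAACGAAACTccacagaagc
Ifi44, chr3:151749948-151749977, minus strand: aggtatacagAGTTTCAGTTttcgtttccc
Lgals3bp, chr11:118401954-118401983, minus strand: gttttctgaaAATCGAAACTaggtgaggtt

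The extended form, searched on both strands, was found in 6 of the 8 windows and in 1.72% of all 32851 windows of the same length. The windows of Phf11c and Epsti1 held no match, but the bases before the GENCODE 5′ end of Phf11c were not searched. In the list of other interferon-induced genes described further below, 18 of the 30 genes that had a window held it. In Phf11a and in Phf11b the match ran from 27 to 18 bases before the GENCODE 5′ end of the gene. In Phf11d it began 23 bases before that end and in Xaf1 12 bases after it. In Ifi44 the first match began 7 bases before that end, and another covered bases 40 to 49 of the gene. In Lgals3bp the match covered bases 120 to 129 of the GENCODE gene, although it lay 14 to 5 bases before the RefSeq start. The windows of Phf11a and Phf11b were identical at 98.2% of 279 aligned bases, whereas those of Phf11a and Phf11d were identical at 72.9% of 262. The core of the response element itself, GAAA followed after 2 bases by a second GAAA, was chosen before the windows were read. Its matches overlap the extended form and were found only in Phf11a and Phf11b among the 8 windows. It was in 3.44% of all windows, more than the extended form, and in 18 of the 30 other interferon-induced genes. The AANNGAAA core alone was in 7 of the 8 windows, but also in 23.9% of all windows and 24 of the 30 other genes. TTCNNNGAA, the core of the gamma-activated site found at targets of interferon-gamma, was in none of the 8, in 8.30% of all windows and in 7 of the 30 other genes. A match is a description of letters in a window and not a bound site.

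Of the 10 genes, 7 were higher in TKO, 2 were higher by less than 2-fold and 1 had at most 3 counts in either library. Phf11a, Phf11b, Phf11d, Ifi44 and Xaf1 formed the upper end, with folds between 3.95 and 4.95. Rtp4 and Epsti1 followed, and the abundant Lgals3bp and Ifi27l2a had the smallest ratios. A gene was called higher or lower in TKO when its TMM-scaled counts differed at least 2-fold, the 95% counting interval excluded equal levels, and 1 library had at least 20 counts. By this size rule 7 of the 9 genes past the count minimum were called higher and none lower. Among all 11525 genes past the minimum, 2.43% were called higher and 2.3% lower. The median log2 ratio of the 9 genes was 1.98, beside 0.0043 for all genes. At a 4-fold threshold 4 of the 9 were called higher, namely Ifi44, Phf11b, Xaf1 and Phf11a, against 0.659% of all genes past the minimum. In bulk samples, more RNA per cell and more cells that express a gene cannot be told apart.

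**Figure D1:**
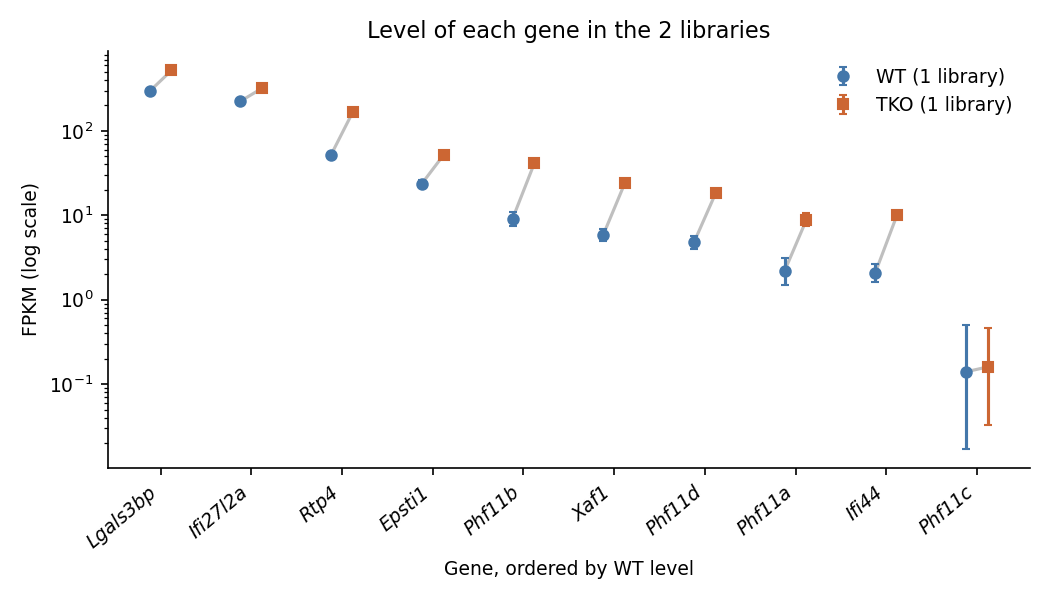
FPKM of each gene (log axis) in the WT library (circles) and the TKO library (squares), ordered by WT level; bars are 95% Poisson intervals of the counts, scaled to FPKM. The TKO value lies above the WT value for every gene, and the intervals overlap only for Phf11c.

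Among the Phf11 genes, Phf11b (Entrez 236451, chromosome 14, 59320964 to 59341351, minus strand, mm10) had the highest level per length, with FPKM values of 9.09 in WT and 41.23 in TKO. The counts were 113 and 504, and the TKO library was higher without overlap of the counting intervals. The fold of the scaled counts was 4.67 (95% interval 3.80 to 5.78). Phf11d (chromosome 14, 59347407 to 59365470) had FPKM values of 4.77 and 18.34, and 140 and 529 counts. It was 3.95-fold higher in TKO (3.28 to 4.80). Phf11a (chromosome 14, 59276913 to 59297522) had FPKM values of 2.2 and 8.85 from 32 and 128 counts, a fold of 4.19 (2.82 to 6.38). The ratios of these 3 genes lay within each other's intervals.

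Phf11c (chromosome 14, 59380833 to 59395381) had 2 rounded counts in WT and 3 in TKO. Both are at or under the 3 counts that an observed 0 allows, so no fold is given. Its FPKM values were 0.14 and 0.16. With these counts a difference in Phf11c was not detectable. The annotation also holds a read-through gene, Setdb2-phf11c, which spans both Setdb2 and Phf11c. Reads over Phf11c could be assigned to either entry, so the low counts of Phf11c may leave out some of them. Its counts were 118 and 154, its log2 ratio 0.45 (0.094 to 0.81), and it was not called.

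How the reads were divided among these paralogs is uncertain, because their transcripts are alike in part. Of the distinct 50-base windows in the GENCODE transcripts of each gene, 47.0% of those of Phf11b also occurred in the transcripts of another gene. The share was 35.2% for Phf11a, 11.8% for Phf11c and 8.09% for Phf11d. The deposited expected counts of all 4 Phf11 genes were fractional in both libraries, as were those of Xaf1, and that of Ifi44 in WT, whereas those of Rtp4, Epsti1, Ifi27l2a and Lgals3bp were whole numbers. Fractions did not follow this sharing gene by gene, since Ifi44 shared none of its windows and Rtp4 shared 11.6% of them. The shared windows of Rtp4 were all shared with the noncoding transcript Gm45338. The annotation behind the counts was not given and may not hold that transcript. Summed over the 4 genes, a value that does not depend on how reads were divided among them, there were 287 counts in WT and 1164 in TKO. The sum was 4.24-fold higher in TKO (3.73 to 4.85). The sum can still depend on how reads were divided with genes outside the 4. The read-through gene Setdb2-phf11c had 118 and 154 counts. The nearby pseudogene Gm6904, which shares some of these windows, had 5 and 6 counts.

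The makeup of the Phf11 counts was compared as the share held by each gene. Phf11d held 48.8% of them in WT (exact Clopper-Pearson interval 42.9 to 54.7) and 45.4% in TKO (42.6 to 48.4). Phf11b held 39.4% (33.7 to 45.3) and 43.3% (40.4 to 46.2). Phf11a held 11.1% (7.75 to 15.4) and 11.0% (9.26 to 12.9). All 3 pairs of intervals overlap, so no shift among the paralogs was detectable at this depth.

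**Figure D2:**
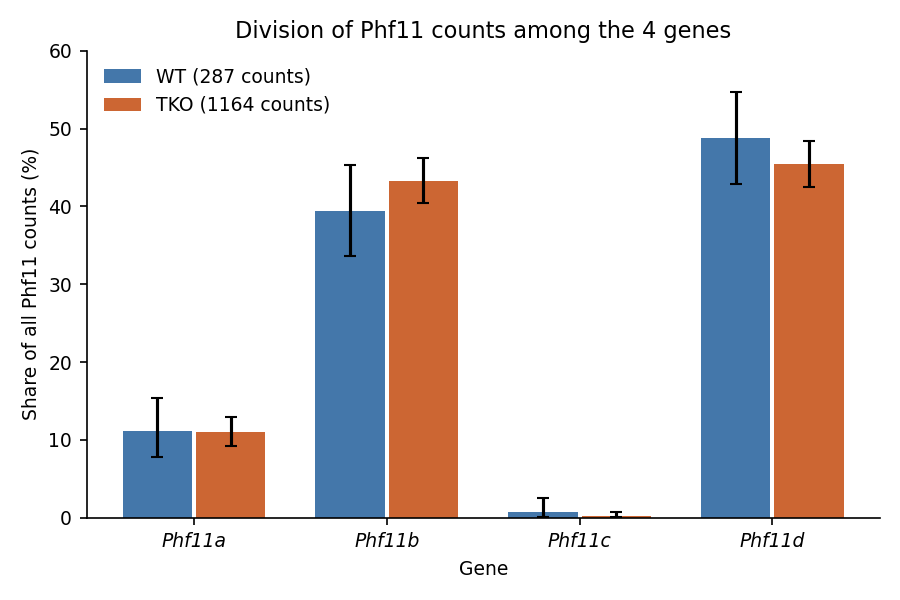
Share of the Phf11 counts (percent) held by each of the 4 genes in WT (287 counts) and TKO (1164 counts), with exact 95% binomial intervals for counting error. The intervals of WT and TKO overlap for each gene, and Phf11c holds under 1% in both libraries.

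Ifi44 (Entrez 99899, chromosome 3, 151730922 to 151749960, minus strand), which encodes an interferon-induced cytoplasmic protein, had FPKM values of 2.10 in WT and 10.15 in TKO. Its counts were 67 and 317, and it had the highest ratio of the set, 4.95-fold (3.79 to 6.54). Xaf1 (Entrez 327959, chromosome 11, 72301629 to 72313733, plus strand) encodes a protein that binds and counteracts XIAP, an inhibitor of cell-killing caspases. Its FPKM values were 5.86 and 24.33, from 165 and 670 counts. It was 4.25-fold higher in TKO (3.58 to 5.07). The log2 intervals of Phf11a, Phf11b, Phf11d, Ifi44 and Xaf1 all contain the stretch from 1.93 to 2.26, so their order is not resolved by the counts.

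Rtp4 (Entrez 67775, chromosome 16, 23520291 to 23614222, plus strand) encodes a chaperone that helps some G protein-coupled receptors reach the cell surface. With FPKM values of 52.14 in WT and 168.00 in TKO, it was the most abundant of the 7 genes called higher. The counts were 886 and 2800, and the fold was 3.31 (3.07 to 3.57). Its interval lies below those of Phf11b, Ifi44 and Xaf1 and overlaps those of Phf11a and Phf11d. In GENCODE, 296 of its 2131 exonic bases are shared with Gm45338, a noncoding transcript on the same strand, so part of its reads could come from either.

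Epsti1 (Entrez 108670, chromosome 14, 77904239 to 78002657, plus strand), a gene first described in breast cancer cells cultured with stromal cells, had FPKM values of 23.67 and 51.84. Its counts were 477 in WT and 1014 in TKO. The fold was 2.22 (1.99 to 2.49), so the lower bound lies at the threshold. The interval does not overlap that of any of the 6 genes with larger ratios.

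Lgals3bp (Entrez 19039, chromosome 11, 118392751 to 118402092, minus strand) encodes a secreted glycoprotein that binds galectin-3. It was the most abundant gene of the set in both libraries, with FPKM values of 295.17 in WT and 520.70 in TKO. From 6958 and 12039 counts, the fold was 1.81 (1.76 to 1.87), below the 2-fold threshold with an interval far from equal levels. Ifi27l2a (Entrez 76933, chromosome 12, 103442167 to 103443680, minus strand), which encodes a small hydrophobic protein of the ISG12 family, had FPKM values of 224.39 and 320.68. Its counts were 1063 and 1492, and its fold was 1.47 (1.36 to 1.59). Its deposited length, 465.42 bases, is the shortest of the set. After a trend between ratio and gene length had been taken out, its log2 ratio was 0.27 instead of 0.55.

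**Figure D3:**
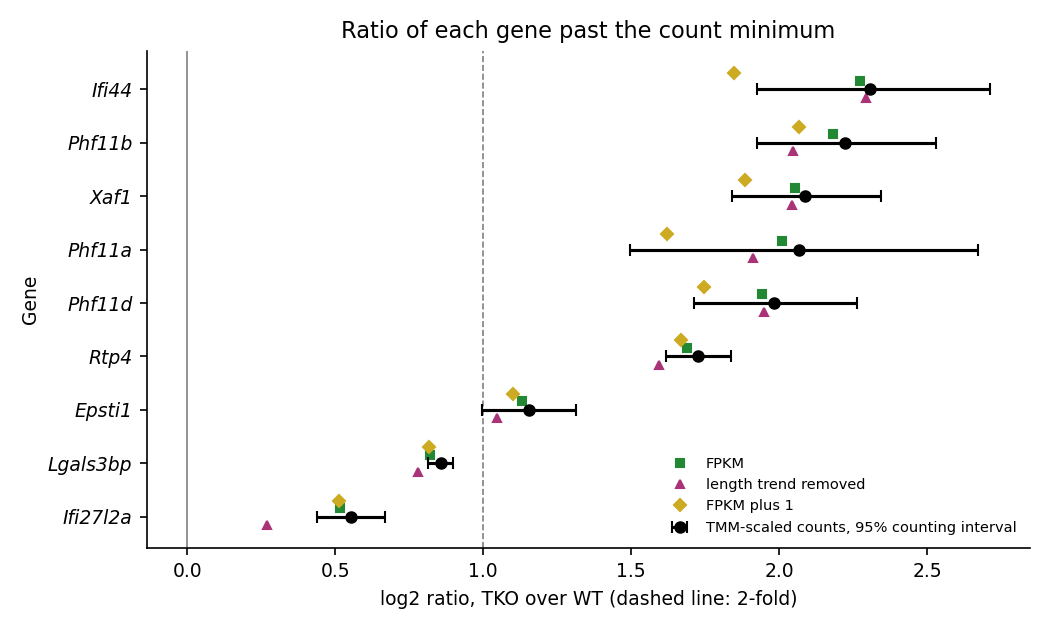
Log2 ratio of TKO over WT for the 9 genes past the count minimum: black points are TMM-scaled counts with 95% counting intervals, and coloured marks are 3 other ways to compute the same ratio. Every mark lies to the right of 0, and 7 genes lie right of the dashed 2-fold line under all 4.

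The 2 genes below the threshold were also the 2 with the highest levels, and few genes at such levels were called. Of 681 genes with a WT FPKM of at least 100, 3 genes or 0.441% were called higher. These were Ly6e, H2-T23 and Bst2, all named after their values were seen. By ratio Lgals3bp ranked 6 and Ifi27l2a 27 among the 681. As a difference in level rather than a ratio, Lgals3bp had the largest gap, 225.53 FPKM, followed by Rtp4 with 115.86 and Ifi27l2a with 96.29. For Ifi44 the same difference was 8.05 FPKM. All 10 genes together held 9903 counts in WT and 19496 in TKO, and Lgals3bp made up 70.3% and 61.8% of them.

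The order of levels per length was nearly the same in both libraries. From the top it was Lgals3bp, Ifi27l2a, Rtp4, Epsti1, Phf11b, Xaf1 and Phf11d, and Phf11c was last. Phf11a and Ifi44 stood at places 8 and 9 in WT, where their FPKM intervals, with upper bounds of 3.11 and 2.67, overlap. They exchanged places in TKO, where the intervals of 7.38 to 10.5 and 9.06 to 11.3 overlap too. In WT the intervals of Xaf1 and Phf11d overlap as well, at 5.00 to 6.83 and 4.01 to 5.63, but in TKO they do not. All other neighbours in the order were apart by more than their counting intervals in both libraries.

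**Figure D4:**
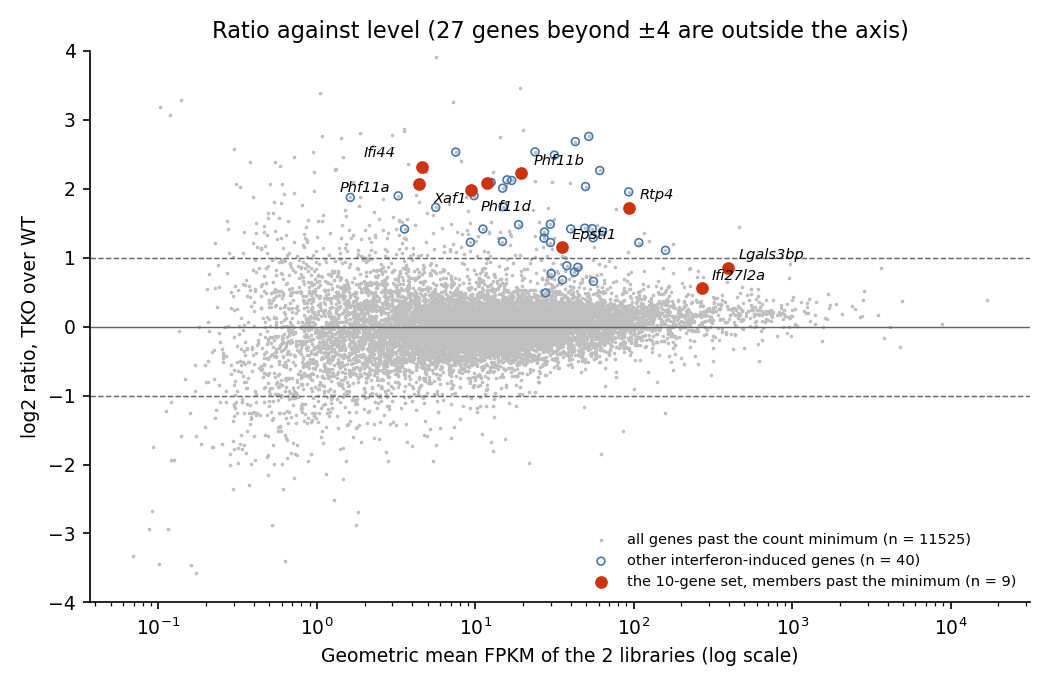
Log2 ratio of TKO over WT against the geometric mean FPKM (log axis) for 11525 genes past the count minimum, with 27 genes beyond the axis limits. The 9 filled points of the set lie above 0 among the open circles of 40 other interferon-induced genes, and Lgals3bp and Ifi27l2a lie below the dashed 2-fold line at the right.

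Genes elsewhere in the interferon response gave a scale for these ratios. Of 40 other interferon-induced genes, 33 were called higher and none lower, with a median log2 ratio of 1.42. Among all genes past the minimum, 2.43% were called higher and 2.3% lower, with a median of 0.0043. The list was chosen with earlier results of these data known. Its genes ranged from Ifit3, an antiviral RNA-binding protein gene, at 2.76 to Eif2ak2, the gene of the kinase PKR, at 0.49. Bst2, which tethers virus particles to the cell, was the most abundant of them, at 109.55 and 229.73 FPKM. The genes nearest to the median point of the 9 genes, 9.09 FPKM in WT and 41.23 in TKO, were Usp18, Gbp2 and Ifi47. Nearness here is the distance in log2 FPKM over 2 libraries only, so a similar fold follows from how these genes were chosen. Usp18, a negative regulator of interferon signalling, was 4.34-fold higher in TKO (3.65 to 5.20).

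The interferon signalling list shares members such as Stat2, Irf7, Irf9 and Usp18 with the list above. It had 5 of 20 members called higher and none lower, beside 2.43% and 2.3% of all genes. Its median log2 ratio was 0.28. Stat2 was 2.80-fold higher and called, whereas Irf9, the subunit that binds the response element, was 1.73-fold higher and below the threshold. Irf7, a transcription factor that is itself interferon-induced, was 4.80-fold higher. Socs1, an inhibitor of the JAK kinases, was called higher on 12 and 28 counts. None of the receptors and kinases was called, and their log2 ratios lay between -0.44 for Ifnar1 and 0.21 for Ifngr2, with Ifnar2 at 0.088, Jak1 at -0.067 and Tyk2 at -0.013. With the length trend removed, Ifnar1 was at -0.17, and Ifnar2, Jak1 and Tyk2 changed sign, to -0.026, 0.11 and 0.13. A separate list of 13 interferon ligand genes was not analysed here. None of 10 reference genes was called, and their log2 ratios lay between -0.19 for Pgk1 and 0.31 for Ppia.

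Relatives and binding partners of the set were read from a separate list. Of the 10 past the count minimum, 1 was called higher and none lower, beside 2.43% and 2.3% of all genes. With 10 genes, these counts say little about the list as a whole. The median log2 ratio of the 10 was 0.048. The gene called higher was Lgals9, which encodes galectin-9, with 1331 and 3016 counts and a fold of 2.37. Lgals3, whose product galectin-3 is bound by the Lgals3bp protein, had 39088 and 41237 counts and a log2 ratio of 0.14 (0.12 to 0.16). Xiap, the partner that names Xaf1, had 1481 and 1245 counts and a log2 ratio of -0.18 (-0.29 to -0.075). With the trend between ratio and gene length removed, Lgals3 was at -0.0080 and Xiap at 0.059, so both changed sign.

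Ifi27 went the other way from its relative Ifi27l2a. Its counts were 371 in WT and 183 in TKO, a log2 ratio of -0.95 (-1.22 to -0.69), just short of the size rule. With the length trend removed it was at -1.14 and was called lower. The 2 genes lie next to each other on chromosome 12, and 0.483% of the 50-base windows of Ifi27l2a transcripts occur in those of another gene, Ifi27l2b.

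The genes beside each locus were compared to show how far a difference extended along the chromosome. Among the 3 nearest measured genes on each side of 7 loci, 22 were past the count minimum, of which none was called higher and 1 lower. Of all genes past the minimum, 2.43% were called higher and 2.3% lower, so any 22 genes would hold few calls. The median log2 ratio of the 22 was -0.0053. Setdb2, the neighbour of the Phf11 genes, had 181 and 172 counts and a log2 ratio of -0.0080 (-0.32 to 0.30). The read-through gene Setdb2-phf11c, at 0.45 as given above, was the neighbour there whose interval excluded 0. The gene called lower was Otub2, a deubiquitinase gene near Ifi27l2a, with 25 and 8 counts. Its log2 ratio was -1.58 (-2.94 to -0.38).

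**Figure D5:**
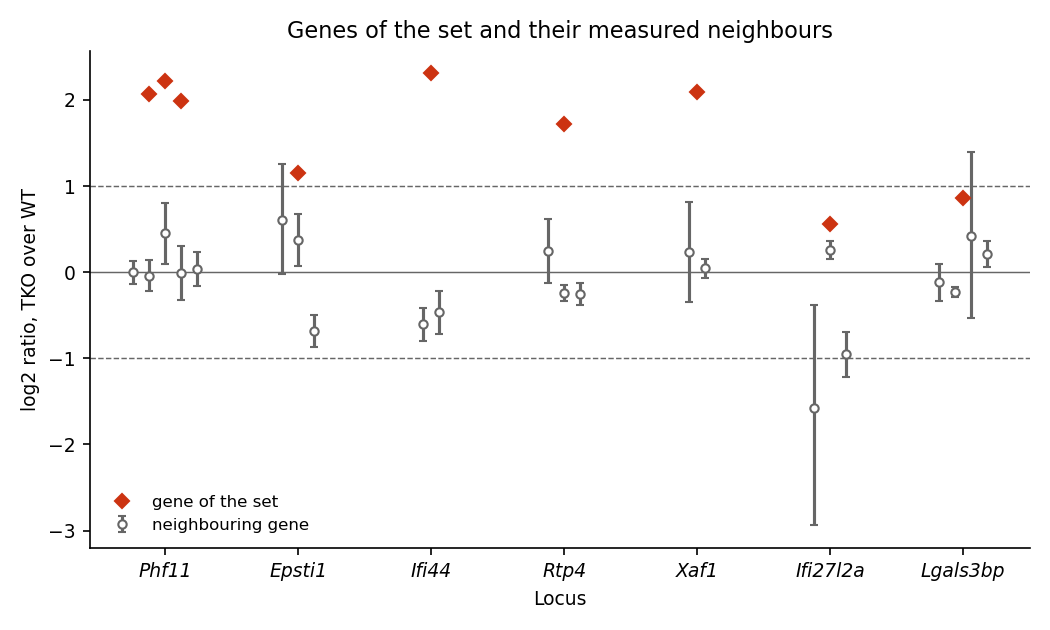
Log2 ratio of TKO over WT for genes of the set (diamonds) and for their nearest measured neighbours past the count minimum (open circles with 95% counting intervals), by locus. At the Phf11 locus the neighbours lie around 0 except the read-through gene Setdb2-phf11c at 0.45, while Phf11a, Phf11b and Phf11d lie near 2.

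Markers of other cell types that such a culture could hold also differed between the libraries. Conventional dendritic cell markers had 3 of 4 members past the minimum called higher, beside 2.43% of all genes. The summed FPKM of the 7 listed was 8.93 in WT and 21.6 in TKO, with Cd209a at 0 counts in TKO. Itgax, which macrophages express too, held 7.75 and 19.5 FPKM of these sums. The other members called rest on 8 and 22 counts for Dpp4 and 10 and 27 for Flt3, and Zbtb46 had 5 and 3. Fibroblast markers had 4 of 6 members past the minimum called lower, beside 2.3% of all genes, and their summed FPKM was 81.8 and 23.6. Plasmacytoid dendritic cells are strong interferon producers. Of their 5 markers in the table, 4 had at most 6 counts in either library, Ly6d had 0 in WT, and Tcf4, which other cells express too, had a log2 ratio of 0.0058. Neutrophil markers summed to 6.15 and 8.87 FPKM, and Camp was at 0 counts in TKO. Of the 2 neutrophil markers past the minimum, S100a8 was called higher on 9 and 21 counts and Mmp9 lower on 52 and 19. The shares of all genes called were 2.43% and 2.3%, as above. B cell markers summed to 2.52 and 1.91 FPKM. Of the 2 past the minimum, 1 was called lower, Ebf1 on 21 and 8 counts, beside 2.3% of all genes. Ms4a1 was among those at 0 in WT. T and NK cell markers summed to 3.08 and 2.62 FPKM. Only 1 of them was past the minimum, Cd4, and it was called lower on 64 and 25 counts. Cd3d, below the minimum, went the other way with 10 and 19 counts, and Ncr1 was at 0 in WT. The part of these cells in the ratios of the 10 genes was not tested.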

How the data were processed

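Per the labels' protocols, marrow was grown into macrophages over 5 days in medium with 10% serum and 10% L929 supernatant, and polyadenylated RNA was sequenced. Bowtie2 2.2.5, HISAT2 2.0.4 and RSEM 1.2.12 with mm10 are named, without roles, per the submitters' processing notes; the annotation, read length and strand setting were not given in the sources used here. As deposited, expected counts are per gene and partly fractional. The deposited FPKM values are scaled for length and depth, with 0.01 entered for a gene without counts. The log2 ratio given by the authors is that of FPKM, and the test behind the authors' p-value is not named in the labels or headers. The authors' FDR, with 713 values above 1, is kept as a score. Neither it nor the p-value was used, and protein sequences were not analysed here.

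Expected counts were rounded and scaled with TMM factors (edgeR 4.0.16, R 4.3.3), 1.01 for WT and 0.988 for TKO. Ratios had no pseudocount, and a 0 was replaced by 3 counts. The 95% intervals were exact conditional binomial (Clopper-Pearson). Without molecular identifiers, reads do not stand for independent molecules, so intervals cover counting error only. The ratio, its interval and the size rule were tried on simulated Poisson counts. No variation between libraries was simulated, and the changed genes differed 4-fold and had at least 100 expected counts in 1 library. That simulation follows the model behind the interval, so it cannot check variation between animals. Changed genes with few counts were not simulated. No test between genotypes was possible with 1 library each. Gene positions, strands and exons came from GENCODE M21 (GRCm38, the assembly behind mm10), neighbours and promoter windows from RefSeq GRCm38.p6. Promoter windows were aligned with Biopython 1.88.

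The 10 genes and all lists were chosen with earlier results of these data known. Named were all 10 genes, any gene of the relatives and signalling lists, the extremes of the other interferon-induced and the reference genes, the most abundant of the former, neighbours past the size rule, and the 3 nearest genes in level with at least 100 counts, leaving out predicted ones. Other genes named, such as Csf1r, Mir17hg, Gm6904, Setdb2-phf11c and cell type markers, were chosen after their values were seen. Alternatives were library totals, DESeq2 1.42.0 size factors, FPKM with and without a pseudocount of 1, removal of a lowess trend (span 0.3) with gene length, unrounded counts, other count minimums and 1.5-fold and 4-fold thresholds. Of the per-sample columns, 0 went unmatched.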

Additional observations from a re-analysis of the deposited data

How the results depend on the processing

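The 7 genes called higher kept that number under library totals, DESeq2 size factors, log2 of FPKM plus 1, removal of the length trend, and count minimums of none and 100. It was 8 at 1.5-fold and 4 at 4-fold. Over all genes, 280 were higher and 265 lower, against 164 and 95 with at least 100 counts, 591 and 636 at 1.5-fold, 76 and 26 at 4-fold, and 213 and 122 with log2 of FPKM plus 1. The first of these tests fewer genes, and the last uses another filter and no counting interval. Of 60 alternative log2 ratios of single genes of the set, 56 stayed within the counting interval and 0 changed sign. The other 4 were Ifi44 at 1.85 with FPKM plus 1, and Rtp4 at 1.59, Lgals3bp at 0.78 and Ifi27l2a at 0.27 with the length trend removed. That removal also gave 1 relative called lower, Ifi27. The share of calls that were higher was 51.4%. Under the alternatives it ran from 47.3% with library totals to 74.5% at 4-fold, and was 63.3% with at least 100 counts. No paired analysis was possible because each genotype had 1 library, and leaving out a library was not possible either.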
